A study of Rattus norvegicus with 15 samples.

Results

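Krt7, Krt19, Epcam, Sox9, Spp1, Cftr, Prom1 and Cldn4 are genes of bile duct cells (cholangiocytes) and of liver progenitor cells, and they were listed by gene symbol as known markers, with earlier results of these samples known. All 8 symbols were found, each in 1 row, among the 32623 genes of the deposited count table. Liver RNA of male Wistar rats was sequenced to ask which transcripts change in cirrhosis and which of these changes differ under eplerenone, a blocker of the mineralocorticoid receptor. The 15 rats of the sample labels were 5 untreated controls, 5 rats with cirrhosis and 5 rats with cirrhosis & eplerenone. Control replicate 1 was not analysed here, because the count table gives 14 rats, with 4 controls. The study states that 1 control stood apart in its principal component analysis and was left out, without naming the replicate. Spread and overlap of controls are thus those of the 4 controls in the table. Rats of both CCl4-treated groups inhaled carbon tetrachloride (CCl4), a hepatotoxin, for 12 weeks and drank water with phenobarbital at 0.35 g/L. The cirrhosis & eplerenone group also ate eplerenone at 100 mg/kg body weight in hazelnut spread from week 8 to week 12. Livers of the CCl4-treated groups were taken 7 to 10 days after the last CCl4. Controls were not treated, so the effects of CCl4 and of phenobarbital cannot be told apart in comparisons with control. All rats were age-matched and weighed 75 to 100 g at the start, and the study states that those sequenced were chosen by how well cirrhosis induction, eplerenone treatment or both had worked.

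A healthy liver holds few cholangiocytes, which line the bile ducts, and it holds still fewer progenitor cells in the finest branches of the biliary tree. In chronic injury strings of small duct-like cells spread from the portal tracts, which is called the ductular reaction. These cells carry biliary keratins, the adhesion molecule Epcam and the transcription factor Sox9, and hepatocytes under injury can switch on some of the same genes. CCl4 damages hepatocytes around the central vein, and the ductular reaction is known to accompany the scarring that follows.

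RefSeq windows of the 250 bases before a transcript start were found for 4 of the 8 genes (Cftr, Epcam, Prom1 and Spp1), in assembly GRCr8, which is not the rn6 build of the counts. They are shown because all 4 genes were higher in cirrhosis in the data below. Of 5 windows of these genes, with 2 for Prom1, 3 held a match to one of 4 motif letter strings searched on both strands, and these are printed with the match in capitals. The strings were TGANTCA for AP-1, GGAATG for TEAD, TGGGAA for RBPJ and GTTAAT for HNF1, chosen after values of these genes had been seen. Among all 33469 windows, 6.34% held the AP-1 string, 12.1% the TEAD string, 22.1% the RBPJ string and 6.45% the HNF1 string. The Epcam match to the AP-1 string lay at -141 to -135 from the start and the Prom1 match to it at -191 to -185. The Spp1 match to the HNF1 string lay at -187 to -182. In the AP-1 string N stands for any base, which was C for Epcam and A for Prom1. The other Prom1 window, which starts at 71202395, held no match. These are letter matches only, and no binding was measured.
Epcam, chr6:12649679-12649928, minus strand: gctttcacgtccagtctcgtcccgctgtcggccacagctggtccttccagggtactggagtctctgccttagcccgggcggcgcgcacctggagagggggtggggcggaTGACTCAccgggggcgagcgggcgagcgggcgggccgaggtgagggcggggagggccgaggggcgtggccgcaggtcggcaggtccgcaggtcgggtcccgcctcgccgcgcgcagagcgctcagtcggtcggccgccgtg
Prom1, chr14:71211389-71211638, plus strand: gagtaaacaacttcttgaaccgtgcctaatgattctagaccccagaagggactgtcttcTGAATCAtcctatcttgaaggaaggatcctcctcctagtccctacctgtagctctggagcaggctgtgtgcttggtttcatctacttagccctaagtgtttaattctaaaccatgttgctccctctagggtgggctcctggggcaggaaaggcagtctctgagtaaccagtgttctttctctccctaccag
Spp1, chr14:5619805-5620054, minus strand: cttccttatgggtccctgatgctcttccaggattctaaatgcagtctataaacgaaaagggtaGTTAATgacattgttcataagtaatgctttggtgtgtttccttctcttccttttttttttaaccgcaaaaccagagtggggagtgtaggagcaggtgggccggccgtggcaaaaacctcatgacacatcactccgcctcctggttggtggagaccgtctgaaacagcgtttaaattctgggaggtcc

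The libraries held 16157491 to 21574767 counted reads, and 3 counts, taken as the smallest amount told from 0, stood for 0.121 to 0.191 FPM. FPM are counts scaled to 1000000 per library, with library sizes adjusted by TMM, edgeR's trimmed mean of M-values. They are not divided by transcript length, so levels are compared between rats and never between genes. Hepatocyte markers such as Alb were abundant in all 14 rats, as the liver label states. On the first principal component of the 500 most variable genes, which held 66.6% of the variance, controls lay between 44.3 and 50.6 and cirrhosis replicates 1 to 4 between -47.7 and -38.0. Cirrhosis replicate 5 stood apart at 13.03, and in the cirrhosis & eplerenone group replicate 3 lay at -42.6 while the other 4 rats lay between -18.5 and 26.8. Animal labels began with 13 or 16 in controls and with 15 or 20 in CCl4-treated rats, what these prefixes mean is not given in the sources used here, and a difference between them cannot be told apart from CCl4 treatment. Counts of the 8 genes and of the lists are therefore also given without these 2 rats, and the eplerenone comparison also within prefixes.

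All 8 genes were higher in cirrhosis than in control, by 4.17-fold (Epcam) to 18.2-fold (Sox9). A differentially expressed gene (DEG) had a false discovery rate (FDR, Benjamini-Hochberg over all genes tested) below 0.05 in both edgeR and DESeq2. By this rule 8 of the 8 were DEG and higher, beside 1937 of 14417 genes tested (13.4%). Of all genes tested 961 were DEG and lower (6.67%), and with libraries scaled by total counts in place of TMM the split was 3053 higher and 359 lower, with all 8 genes still higher. Their median log2FC was 3.17, beside -0.01 over all genes tested. Groups did not overlap for 6 of the 8, with every cirrhotic rat above every control, beside 11.2% of all genes tested. Krt19 and Spp1 were the genes with overlap. Folds of the low genes moved with single controls. Without control replicate 2 the log2FC was 4.88 for Sox9, 4.68 for Prom1 and 3.94 for Cldn4, in place of 4.19, 3.88 and 3.32, and without control replicate 4 that of Krt7 was 3.65 in place of 2.90. Without cirrhosis replicate 5 and eplerenone replicate 3 all 8 were still DEG and higher, beside 19.3% of 14126 genes tested. In the controls 5 of the genes (Krt7, Sox9, Cftr, Prom1 and Cldn4) had 22 to 46 counts in all 4 rats together, and they met the filter on low counts through the CCl4-treated rats, so that the count of DEG says little beyond the levels of each gene. Epcam, Krt19 and Spp1 met it from the controls alone.

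**Figure D1:**
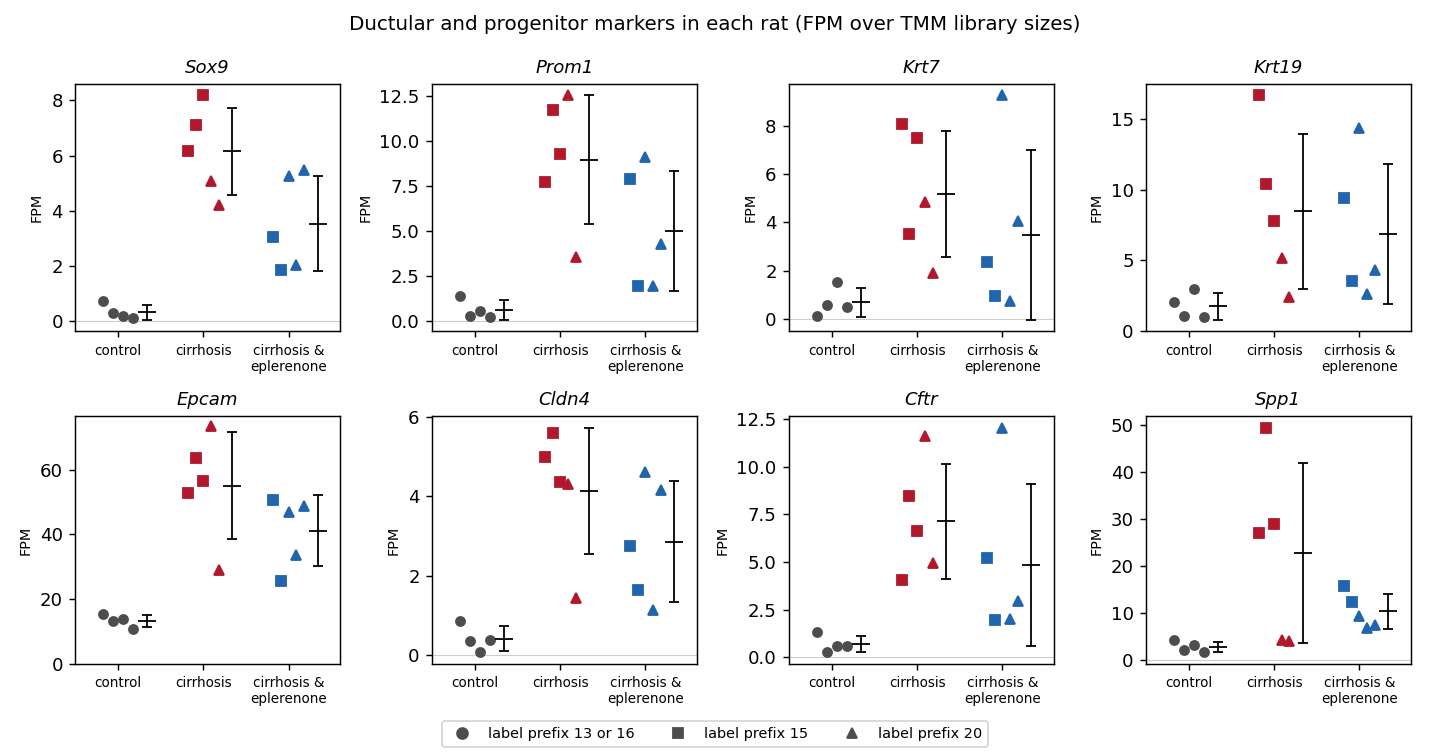
Level of each gene (FPM, linear axis) in every rat, by group, with group mean and SD beside the points. Circles are controls, squares are CCl4-treated rats of label prefix 15 and triangles those of prefix 20. Sox9 lay at 0.127 to 0.724 FPM in controls, the lowest from 2 counts, and at 4.22 to 8.20 FPM in cirrhosis. Spp1 in cirrhosis fell into 3 squares at 27.0 FPM or more and 2 triangles at 4.31 FPM or less.

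Sox9 (ENSRNOG00000002607, chromosome 10), a transcription factor of bile duct and progenitor cells, had the largest fold of the 8. Its level in control replicates 2 to 5 was 0.724, 0.289, 0.183 and 0.127 FPM. The last of these came from 2 counts, under the floor of 3, and the one before it from 3 counts. In cirrhosis replicates 1 to 5 the level was 6.16, 7.10, 8.20, 5.08 and 4.22 FPM, so the lowest cirrhotic rat stood well above the highest control. Under eplerenone replicates 1 to 5 held 3.07, 1.88, 5.26, 2.03 and 5.46 FPM, between the other groups and overlapping with cirrhosis. Group means were 0.331 ± 0.271 (SD, n = 4), 6.15 ± 1.58 (SD, n = 5) and 3.54 ± 1.73 FPM (SD, n = 5). The log2FC of cirrhosis against control was 4.19 (SE 0.52), with FDR = 0.000523 by edgeR's quasi-likelihood test. As a fold this was 18.2, with a 95% confidence interval from 8.43 to 39.2.

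Prom1 (ENSRNOG00000003098, chromosome 14) encodes prominin, the CD133 antigen of progenitor cells. Control replicates 2 to 5 held 1.39, 0.289, 0.549 and 0.191 FPM, and cirrhosis replicates 1 to 5 held 7.71, 11.7, 9.28, 12.6 and 3.57 FPM. The groups did not overlap, with cirrhosis replicate 5 lowest. With eplerenone the 5 rats split, with 7.87 and 9.11 FPM in replicates 1 and 3, 1.94 and 1.92 FPM in replicates 2 and 4, and 4.26 FPM in replicate 5. Means were 0.604 ± 0.544 (SD, n = 4), 8.97 ± 3.58 (SD, n = 5) and 5.02 ± 3.34 FPM (SD, n = 5), in the same order. The rise in cirrhosis was 14.7-fold, with a log2FC of 3.88 (SE 0.66) and FDR = 0.0019 by edgeR's quasi-likelihood test.

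The keratins Krt7 and Krt19 form the intermediate filaments of duct epithelium, and hepatocytes of a healthy adult liver lack them. Krt7 (ENSRNOG00000008057, chromosome 7) stood at 0.121, 0.578, 1.53 and 0.509 FPM in control replicates 2 to 5, the first of these from 2 counts, under the floor of 3. In cirrhosis replicates 1 to 5 Krt7 held 8.04, 3.51, 7.498, 4.82 and 1.90 FPM, all above the controls. With eplerenone it held 2.35, 0.939, 9.27, 0.734 and 4.04 FPM, a range that reached into both other groups. Krt7 means were 0.683 ± 0.597 (SD, n = 4), 5.16 ± 2.61 (SD, n = 5) and 3.47 ± 3.504 FPM (SD, n = 5). Its log2FC in cirrhosis was 2.90 (SE 0.79), or 7.48-fold, with FDR = 0.0204 by edgeR's quasi-likelihood test.

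Krt19 (ENSRNOG00000014233, chromosome 10) held 2.05, 1.04, 2.99 and 0.954 FPM in control replicates 2 to 5. Cirrhosis replicates 1 to 5 gave 16.7, 10.4, 7.77, 5.13 and 2.38 FPM. The last value lay under that of control replicate 4, so the groups overlapped in 1 rat. In the eplerenone group Krt19 was 9.40, 3.57, 14.4, 2.596 and 4.32 FPM, again highest in replicate 3 and lowest in replicate 4. Means were 1.76 ± 0.961 (SD, n = 4), 8.48 ± 5.48 (SD, n = 5) and 6.85 ± 4.96 FPM (SD, n = 5). The difference between cirrhosis and control was 4.81-fold, with a log2FC of 2.27 (SE 0.61) and FDR = 0.0203 by edgeR's quasi-likelihood test. Krt7 and Krt19 were the genes whose call turned on single rats. By edgeR's quasi-likelihood test without control replicate 3 the FDR was 0.0591 for Krt7 and 0.0642 for Krt19, and without control replicate 5 it was 0.0653 and 0.0683. Without control replicate 2 the edgeR FDR of Krt7 was 0.0521, and without cirrhosis replicate 1 that of Krt19 was 0.051. The log2FC stayed at 2.55 or above for Krt7 and at 1.90 or above for Krt19 in these fits. Reads that match several places were counted at each place in the authors' counting, so keratin values may hold reads of near-identical copies.

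Epcam (ENSRNOG00000015667, chromosome 6), an adhesion molecule of epithelial cells that marks cholangiocytes in liver, had 167 to 252 counts in each control and the smallest SE of the 8. It stood at 15.2, 13.1, 13.7 and 10.6 FPM in control replicates 2 to 5. In cirrhosis replicates 1 to 5 it stood at 52.8, 63.5, 56.4, 73.3 and 28.9 FPM, and with eplerenone at 50.5, 25.7, 47.0, 33.6 and 48.9 FPM. Both CCl4-treated groups lay wholly above the controls. Means were 13.2 ± 1.91 (SD, n = 4), 55.0 ± 16.5 (SD, n = 5) and 41.1 ± 10.9 FPM (SD, n = 5). The fold in cirrhosis was 4.17, with a 95% confidence interval from 2.82 to 6.18, a log2FC of 2.06 (SE 0.27) and FDR = 0.000528 by edgeR's quasi-likelihood test.

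Cldn4 (ENSRNOG00000001476, chromosome 12), a claudin of tight junctions, held 0.844, 0.347, 0.0611 and 0.382 FPM in control replicates 2 to 5, with a single count in replicate 4. Cirrhosis replicates 1 to 5 gave 4.99, 5.59, 4.37, 4.31 and 1.43 FPM, so that 4 rats lay close together and replicate 5 apart, still above the controls. Eplerenone-treated rats gave 2.76, 1.63, 4.61, 1.13 and 4.15 FPM. Group means were 0.409 ± 0.324 (SD, n = 4), 4.14 ± 1.60 (SD, n = 5) and 2.86 ± 1.52 FPM (SD, n = 5). This was a rise of 9.99-fold in cirrhosis, with a log2FC of 3.32 (SE 0.62) and FDR = 0.00315 by edgeR's quasi-likelihood test.

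Cftr (ENSRNOG00000055103, chromosome 4) encodes the chloride channel through which cholangiocytes drive bile secretion. Its controls held 1.33, 0.289, 0.611 and 0.572 FPM. In cirrhosis the levels were 4.05, 8.49, 6.63, 11.6 and 4.94 FPM, and replicate 5 was not the lowest here. With eplerenone they were 5.21, 1.94, 12.1, 2.03 and 2.95 FPM, where replicate 3 stood above every other rat of the study. Means were 0.700 ± 0.442 (SD, n = 4), 7.14 ± 3.01 (SD, n = 5) and 4.84 ± 4.25 FPM (SD, n = 5). Cirrhosis exceeded control by 10.1-fold, with a log2FC of 3.34 (SE 0.62) and FDR = 0.00308 by edgeR's quasi-likelihood test.

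Spp1 (ENSRNOG00000043451, chromosome 14), the secreted matrix protein osteopontin, is made by cholangiocytes and also by macrophages and stellate cells. Control replicates 2 to 5 held 4.22, 2.14, 3.24 and 1.65 FPM. Cirrhosis replicates 1 to 3, of label prefix 15, held 27.0, 49.5 and 28.9 FPM, while replicates 4 and 5, of prefix 20, held 4.31 and 4.05 FPM, next to the highest control. The cirrhotic rats thus fell into 2 sets by label prefix. Replicate 4 had the highest Prom1, Epcam and Cftr of its group. Krt19, Sox9 and Cldn4 also had both rats of prefix 20 below the 3 of prefix 15, by smaller ratios. With eplerenone Spp1 was 15.8, 12.3, 9.43, 6.89 and 7.43 FPM, a narrower range and wholly above the controls. Means were 2.81 ± 1.15 (SD, n = 4), 22.7 ± 19.1 (SD, n = 5) and 10.4 ± 3.71 FPM (SD, n = 5). The log2FC of cirrhosis against control was 3.01 (SE 0.66), or 8.07-fold, with FDR = 0.00716 by edgeR's quasi-likelihood test.

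**Figure D2:**
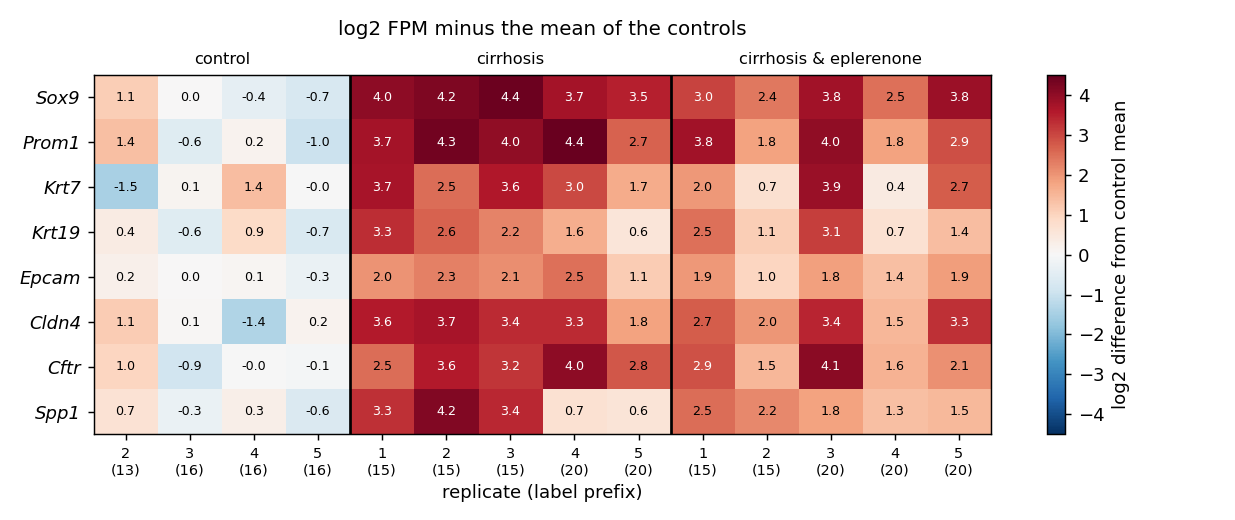
Log2 FPM (prior count 2) of each gene in each rat minus the mean of the 4 controls, with replicate number and label prefix under each column. Cirrhosis replicates 1 to 4 averaged 2.91 to 3.43 over the 8 genes and replicate 5 averaged 1.84, and the rats with eplerenone ranged from 1.39 (replicate 4) to 3.24 (replicate 3).

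The CCl4-treated rats differed among themselves in the whole set of genes. Averaged over the genes on the log2 scale, cirrhosis replicates 1 to 5 stood 3.27, 3.43, 3.29, 2.91 and 1.84 above the control mean. Rats with eplerenone stood 2.67, 1.58, 3.24, 1.39 and 2.45 above it, so that replicate 3 lay within the range of cirrhosis replicates 1 to 4 and replicates 2 and 4 lay below cirrhosis replicate 5. Single controls deviated by -0.41 to 0.54. The summed level of hepatocyte markers, most of it Alb, was 150900 to 168200 FPM in controls. It was 154800 FPM in cirrhosis replicate 5 and 140700, 147800 and 144000 FPM in eplerenone replicates 2, 4 and 5. In the other 6 CCl4-treated rats it was 82450 to 113200 FPM. Of the 4 rats with a high sum, cirrhosis replicate 5 and eplerenone replicates 2 and 4 were the lowest in the 8 genes and eplerenone replicate 5 was not. Within groups Alb had an r of -0.78 with the mean of the 8 genes, Cps1 -0.22 and Apoa1 0.30. Fewer cells of a type and less RNA per cell cannot be told apart in RNA of whole liver. The part of cell makeup in the levels was not tested.

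Within groups most pairs of the genes rose and fell together from rat to rat. Pearson's r of log2 FPM was taken over the 10 CCl4-treated rats after group means were removed, as a description, since the genes share libraries and low counts. It was highest for Epcam with Prom1 (0.89), Krt7 with Sox9 (0.88), Krt7 with Cldn4 (0.87) and Cftr with Prom1 (0.86). Cldn4 had the highest median r with the other 7 genes, 0.84. Spp1 had the lowest, 0.32, from -0.02 with Cftr to 0.66 with Krt19.

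**Figure D3:**
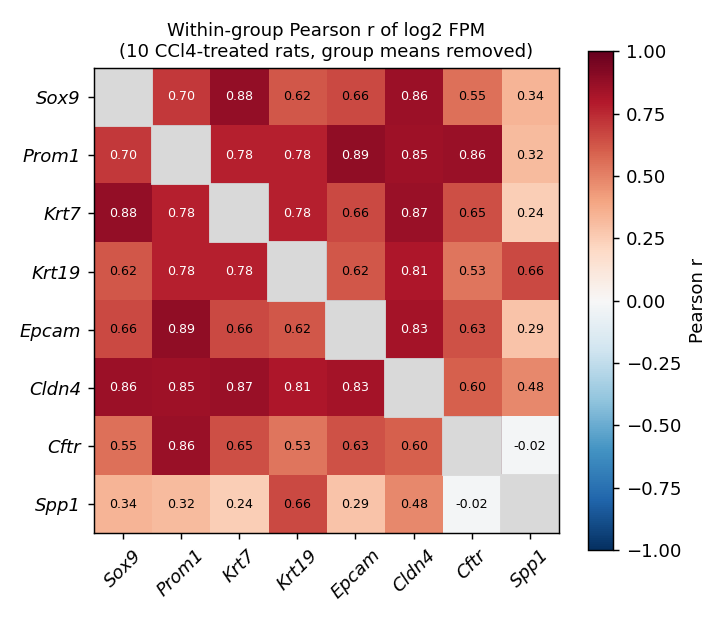
Pearson's r of log2 FPM between the 8 genes over the 10 CCl4-treated rats, group means removed. The row of Spp1 is pale, from -0.02 to 0.66, while Cldn4 lies between 0.48 and 0.87.

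With eplerenone all 8 genes had lower fitted levels than in cirrhosis, but 0 of the 8 passed the test and the groups overlapped for each. The question of this comparison was whether blocking the mineralocorticoid receptor changed the cirrhotic pattern. No FDR of the 8 fell below 0.05 in edgeR's quasi-likelihood test or in DESeq2, and 0 had an unadjusted p below 0.05 in edgeR. Among all 14417 genes tested 0 were DEG and lower (0%), 36 were lower by DESeq2 alone (0.25%), 1100 were lower at an unadjusted p below 0.05 in edgeR (7.63%) and 78 were lower without overlap (0.541%). The median log2FC of the 8 was -0.56, beside 0.01 over all genes tested. Spp1 had the largest difference, -1.13 (95% confidence interval -2.31 to 0.04), with FDR = 0.355 by edgeR's quasi-likelihood test. For Prom1 it was -0.83 (-1.92 to 0.26) and for Sox9 -0.79 (-1.63 to 0.04). Krt7 differed by -0.56 (-1.94 to 0.82), Cftr by -0.55 (-1.61 to 0.51) and Cldn4 by -0.53 (-1.58 to 0.51). Epcam had the narrowest interval, -0.42 (-0.92 to 0.08), and Krt19 the smallest difference, -0.30 (-1.42 to 0.82). As ratios of eplerenone to cirrhosis, the lower ends of the intervals ran from 0.202 (Spp1) to 0.529 (Epcam) and the upper ends from 1.03 (Sox9 and Spp1) to 1.76 (Krt7 and Krt19).

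Within label prefixes the values were unlike, but the difference between prefixes did not pass for any of the 8, with FDR from 0.285 (Spp1) to 0.889 (Cftr) by edgeR's quasi-likelihood test. Among the rats of prefix 15, 3 with cirrhosis and 2 with eplerenone, all 8 genes were lower with eplerenone, by log2FC from -0.62 (Epcam) to -1.96 (Krt7), and Krt7, Epcam, Sox9, Spp1 and Cldn4 did not overlap. Among the rats of prefix 20, 2 with cirrhosis and 3 with eplerenone, Krt7 (0.50), Krt19 (0.94), Spp1 (0.94) and Cldn4 (0.22) were higher with eplerenone. Epcam (-0.23), Sox9 (-0.11), Cftr (-0.51) and Prom1 (-0.64) were lower there. The median over the 8 genes was -1.09 in prefix 15 and 0.06 in prefix 20. Cirrhosis replicate 5 and eplerenone replicate 3, the rats that stood apart, are both in prefix 20. In the mean of the 8 genes they are the lowest cirrhotic rat and the highest rat with eplerenone, so leaving both out makes the difference more negative by construction. Without them log2FC were -0.65 (Epcam) to -1.57 (Krt7) and 0 of the 8 were DEG. DESeq2 alone then gave an FDR below 0.05 for 6 genes, all but Krt19 and Cldn4, beside 1355 of 14126 genes lower (9.59%), and this is a description only. The FDR of edgeR's quasi-likelihood test was 0.0665 (Epcam) to 0.174 (Cldn4). In the same fit 664 of 14126 genes were DEG and lower (4.7%).

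**Figure D4:**
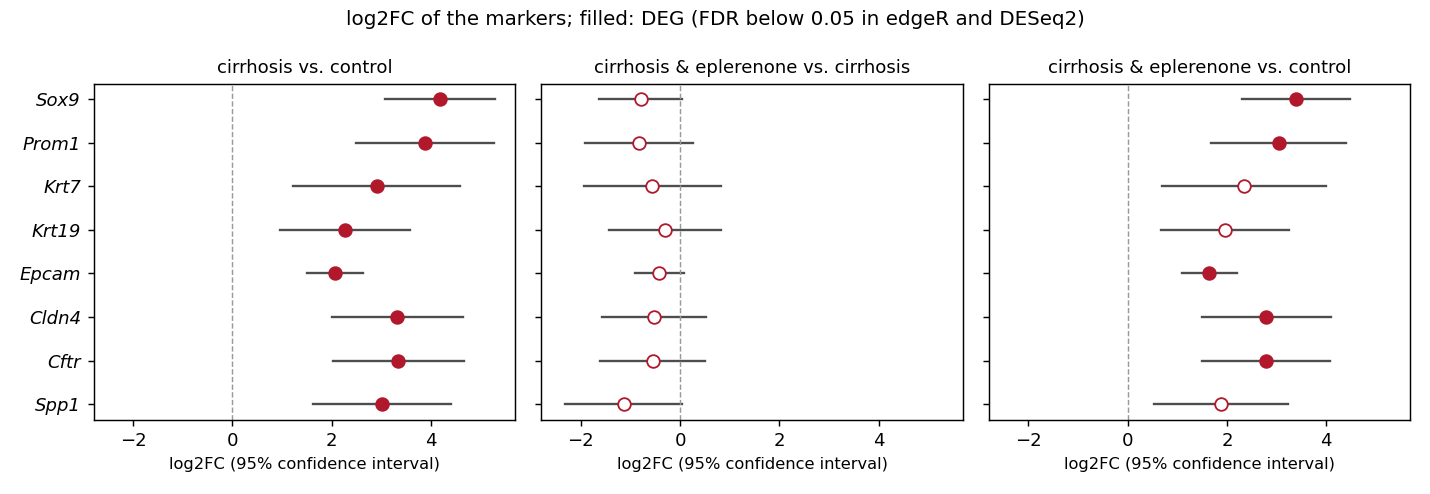
Log2FC with 95% confidence intervals of the 8 genes in the 3 comparisons, from edgeR's fit to all 14 rats. Filled points are DEG, which are all 8 in cirrhosis against control, none of the 8 in cirrhosis & eplerenone against cirrhosis and 5 in cirrhosis & eplerenone against control.

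Against control, the eplerenone-treated rats still held higher levels of the ductular genes. DEG and higher were 5 of the 8, beside 4.33% of all genes tested (624 of 14417). Of these, Sox9, Prom1, Cldn4 and Cftr met the filter on low counts through the CCl4-treated rats. Their part of the count thus says little beyond the levels of each gene. Sox9 was 10.5-fold higher (log2FC 3.39), Prom1 8.25-fold (3.04), Cldn4 6.92-fold (2.79), Cftr 6.91-fold (2.79) and Epcam 3.12-fold (1.64). The FDR of these by edgeR's quasi-likelihood test lay between 0.00327 (Sox9) and 0.0163 (Cftr and Cldn4). Krt7 (log2FC 2.34, FDR = 0.0937), Krt19 (1.96, FDR = 0.0753) and Spp1 (1.88, FDR = 0.0981) missed the threshold in edgeR's quasi-likelihood test. In DESeq2 their FDR were 0.0144, 0.00961 and 0.0163. Groups did not overlap for 6 of the 8, beside 6.42% of all genes tested, and overlapped for Krt7 and Krt19. This comparison uses the same 4 controls as that of cirrhosis, and the median log2FC was 2.57 here and 3.17 there. Without control replicate 3 2 of the 8 were DEG and without control replicate 5 also 2, where the share of all genes fell to 1.76% and 1.22%. Without cirrhosis replicate 5, or without eplerenone replicate 2, 7 were DEG, where it rose to 6.01% and 6.92%. The log2FC of Sox9, Prom1 and Cldn4 was 4.09, 3.84 and 3.41 without control replicate 2, and that of Cftr was 2.11 without eplerenone replicate 3. Without cirrhosis replicate 5 and eplerenone replicate 3 together 5 of the 8 were DEG, beside 3.94% of all genes, with Krt7 at a log2FC of 1.56, Krt19 at 1.502, Cftr at 2.11 and Prom1 at 2.72.

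Most other genes of cholangiocytes were also higher in cirrhosis. Of 32 genes listed 31 were in the table and 28 were tested. In cirrhosis 18 of the 28 were DEG and higher and 0 were DEG and lower, beside 13.4% and 6.67% of all genes tested. Several of them, such as Mmp7, Vtcn1, Ggt1, Fxyd3 and Cldn7, met the filter on low counts through the CCl4-treated rats. Counts of DEG of this list against control thus say little beyond the levels of each gene. The median log2FC of the 28 was 2.71, or 2.31 with Mmp7 set to its bound. Mmp7, a matrix metalloproteinase made by duct epithelium, had 0 counts in every control. At a mean of 0.854 FPM in cirrhosis it was at least 4.47-fold above the control floor of 3 counts per library. With eplerenone its mean of 0.298 FPM was 1.56 times that floor. Counts in replicates 1 to 5 were 0, 0, 15, 4 and 12 there, which overlapped with the controls. Mmp7 was not DEG in that comparison (FDR = 0.0758 by edgeR's quasi-likelihood test). Vtcn1, a surface protein of the B7 family, had 1 count in the 4 controls and 51 in cirrhosis, a ratio of 34.6 with a 95% counting interval of 5.93 to 1390. That interval pools counts over rats and leaves out the spread between them. The edgeR log2FC of Vtcn1 was 4.55 (SE 1.38). Ggt1, the gamma-glutamyltransferase of duct and fetal liver cells, was at 0.999 ± 1.15 FPM (SD, n = 4) in control and 18.9 ± 14.1 FPM (SD, n = 5) in cirrhosis, a log2FC of 4.22.

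The keratins Krt8 and Krt18, which hepatocytes express too, were DEG with log2FC of 1.63 and 1.13. The anion exchanger Slc4a2 (-0.04), the claudin Cldn3 (0.23) and the cadherin Cdh1 (0.16) were not DEG. In cirrhosis & eplerenone against cirrhosis 0 of the 28 were DEG in either direction and 24 had a negative log2FC, with a median of -0.47. By DESeq2 alone 1 passed, the annexin Anxa4, at -0.87 (FDR = 0.0458, DESeq2), and by unadjusted p below 0.05 in edgeR 5 passed, beside 2076 of all 14417 genes in either direction. Against control 10 of the 28 were DEG and higher with eplerenone and 0 lower, beside 4.33% and 0.874% of all genes tested. The largest were the claudin Cldn7 (log2FC 3.88), the ion transport regulator Fxyd3 (2.97) and Dcdc2 (2.86), a doublecortin family gene. Without cirrhosis replicate 5 and eplerenone replicate 3, 6 of 27 were DEG and lower with eplerenone than in cirrhosis and 0 higher, beside 4.7% and 4.45% of all genes. These rats had the lowest and the highest sum of this list in their groups, 1010 and 1744 FPM. Leaving them out thus lowers that difference by construction, and the count is a description only. In that fit 18 were higher and 1 lower in cirrhosis than in control, beside 19.3% and 14.8% of all genes. With eplerenone 11 were higher than in control, beside 3.94% of all genes.

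The list of progenitor and fetal liver genes held genes that rose and genes that fell. Of 18 listed, 16 were in the table and 13 were tested. In cirrhosis 5 were DEG and higher and 1 was DEG and lower, beside 13.4% and 6.67% of all genes tested. The median log2FC was 0.71. Among the higher ones, Dlk1, Thy1, Cd44 and Klf5 met the filter on low counts through the CCl4-treated rats. Counts of DEG of this list against control thus say little beyond the levels of each gene. Dlk1, a surface protein of fetal hepatoblasts, had 0 counts in every control, and its mean in cirrhosis was at least 9.14-fold above the control floor. With eplerenone its mean was 1.98 times that floor. Counts in replicates 1 to 5 were 15, 3, 19, 0 and 3 there, which overlapped with the controls. Dlk1 was not DEG in that comparison (FDR = 0.0558 by edgeR's quasi-likelihood test). Thy1, a surface antigen of portal fibroblasts and of some progenitor preparations, rose by a log2FC of 5.11, from 0.105 FPM, at or under the floor of 3 counts in each control, to 3.87 FPM. Cd44, a hyaluronan receptor, rose by 3.60. Igf2bp3, a fetal RNA-binding protein, fell by 2.40 on the log2 scale, just past the threshold with FDR = 0.0499 in edgeR's quasi-likelihood test. Afp, the fetal counterpart of albumin, had a log2FC of 0.55 and was not DEG. Gpc3 had a log2FC of 2.21, with FDR = 0.0288 by edgeR's quasi-likelihood test. DESeq2 gave Gpc3 no FDR, so it could not be DEG by the rule used here. Against control with eplerenone 2 of the 13, Thy1 (4.25) and Cd44 (2.998), were DEG and higher, beside 4.33% of all genes tested. In cirrhosis & eplerenone against cirrhosis 0 of the 13 were DEG by edgeR and DESeq2 together and 0 passed by DESeq2 alone. By unadjusted p below 0.05 in edgeR 1 passed, beside 2076 of all 14417 genes. Without cirrhosis replicate 5 and eplerenone replicate 3, 12 were tested. In cirrhosis against control 6 were DEG and higher and 1 lower, beside 19.3% and 14.8% of all genes. With eplerenone 1 was higher than in control and 1 lower than in cirrhosis, beside 3.94% and 4.7% of all genes. The last count is a description only, since these rats are the lowest with cirrhosis and the highest with eplerenone in the 8 genes.

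Among genes of signals to ductular cells the largest rise was in Ccn2. Of the 20 listed 17 were tested. In cirrhosis 8 were DEG and higher and 0 lower, beside 13.4% and 6.67% of all genes tested. The median log2FC was 0.74. For Itgb6 and Ankrd1, which met the filter on low counts through the CCl4-treated rats, the call says little beyond their levels. Ccn2, a matricellular target of the coactivator YAP, rose by a log2FC of 4.63, with 19.6 to 384.9 FPM over the cirrhotic rats against 4.33 to 6.88 FPM in controls. Itgb6, the integrin chain that is induced on duct cells in fibrosis, rose by 3.54, and Lama5, a laminin chain of basement membranes, by 3.01. Other DEG included the YAP targets Ccn1 (1.32) and Ankrd1 (2.47), the cytokine gene Tnfsf12 (TWEAK, 0.74) and its receptor Tnfrsf12a (2.22). With eplerenone against control 5 were DEG and higher, beside 4.33% of all genes tested, led by Ccn2 (3.44), Itgb6 (2.98) and Lama5 (2.30). The Notch receptor Notch2 (-0.45), its target Hes1 (0.02), the ligand Jag1 (0.82) and Yap1 itself (-1.02) were not DEG in cirrhosis. Between the eplerenone and cirrhosis groups 0 of the 17 were DEG by edgeR and DESeq2 together, 0 by DESeq2 alone and 3 by unadjusted p below 0.05 in edgeR, beside 2076 of all 14417 genes. Without the same 2 rats 8 were DEG and higher in cirrhosis and 6 with eplerenone than in control, beside 19.3% and 3.94% of all genes. In that fit 3 were lower with eplerenone than in cirrhosis, beside 4.7% of all genes. Cirrhosis replicate 5 and eplerenone replicate 3 had the lowest and highest sum of this list in their groups. Leaving them out thus lowers that difference by construction, and the count is a description only.

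**Figure D5:**
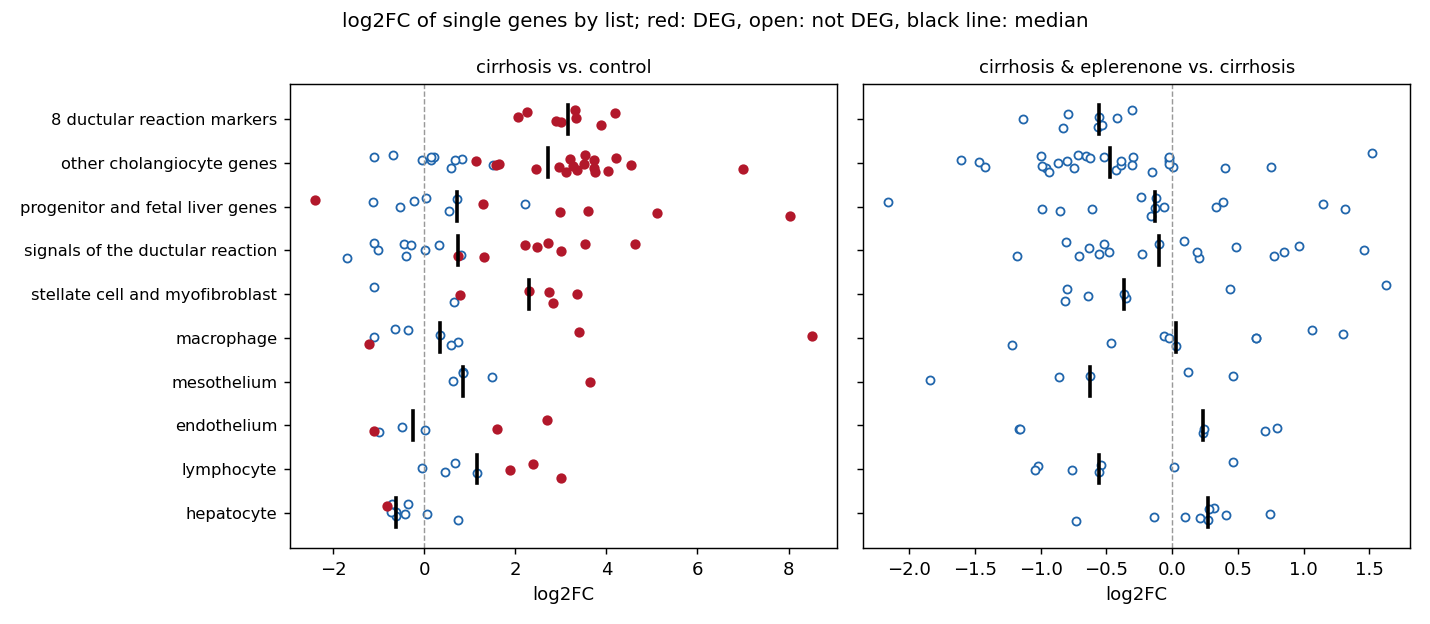
Log2FC of single genes by list in cirrhosis against control and in cirrhosis & eplerenone against cirrhosis, with DEG in red, other genes open and the list median as a black line. In cirrhosis the 8 ductular genes and most other cholangiocyte genes lie to the right of 0, while hepatocyte markers have a median of -0.62; in the eplerenone comparison no gene of these lists is DEG.

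Markers of other liver cells changed beside the ductular genes. Counts of DEG in cirrhosis below stand beside 13.4% of all genes tested higher and 6.67% lower. In lists this short, 1 or 2 genes say little beside these shares. In cirrhosis 5 of 7 tested markers of stellate cells and myofibroblasts were DEG and higher, with summed levels of 139.6 to 239.7 FPM in control, 257.2 to 512.8 FPM in cirrhosis and 381.1 to 491.2 FPM with eplerenone. Most of this sum is Col3a1, at 251.3 to 373.4 FPM with eplerenone and a log2FC of 0.44 against cirrhosis. Lrat was also higher with eplerenone than in cirrhosis, by a log2FC of 1.62 (SE 0.473), after -1.09 in cirrhosis against control. The differences of Acta2 (-0.80), Des (-0.82), Timp1 (-0.64), Pdgfrb (-0.36) and Col1a1 (-0.35) between eplerenone and cirrhosis were negative. None of the 7 was DEG in that comparison. Of 9 macrophage markers 2 were higher, Gpnmb and Trem2, and 1 was lower, Cd163, and the sums overlapped, at 228.3 to 399.8, 210.8 to 460.7 and 206.3 to 515.9 FPM. Of 5 mesothelial markers 1 was higher, Msln, with sums of 15.5 to 27.4, 58.0 to 118.7 and 13.1 to 68.2 FPM, while Calb2 had 0 counts in all rats. Among 7 lymphocyte markers 3 were higher, with sums of 11.1 to 18.7, 16.5 to 30.7 and 13.1 to 32.1 FPM. Of 6 endothelial markers 2 were higher, Vwf and Plvap, and 1 was lower, Kdr, with sums of 159.9 to 188.4, 113.1 to 281.2 and 143.1 to 199.6 FPM. Of 9 hepatocyte markers 1, Hnf4a, was DEG and lower, at a log2FC of -0.81. The part of these cells in the levels of the 8 genes was not tested.

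Outside these lists, 12339 genes with a mean of at least 1 FPM in both CCl4-treated groups were ranked by Pearson's r of their within-group pattern with the mean of the 8 genes over the 10 CCl4-treated rats. The highest were Kif12 (0.98), a kinesin, Pdk3 (0.97), a pyruvate dehydrogenase kinase, Lamb2 (0.96), a laminin chain, Anxa5 (0.96), an annexin, and Sema3f (0.96), a semaphorin. Being the highest of many, these r are larger than they would be in other rats. Kif12 held 2.56 ± 0.721 (SD, n = 4), 51.3 ± 18.6 (SD, n = 5) and 25.2 ± 15.2 FPM (SD, n = 5) in control, cirrhosis and cirrhosis & eplerenone. Its log2FC was 4.32 in cirrhosis and 3.30 with eplerenone against control, both DEG. Pdk3 was not DEG in any comparison, and Lamb2, Anxa5 and Sema3f were DEG in cirrhosis with log2FC of 1.15, 2.83 and 1.68.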

How the data were processed

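The authors isolated liver RNA of each rat, enriched poly(A) RNA, sequenced paired ends of 150 bp, mapped them to rn6 with HISAT2 2.1.0 and counted reads over exons with featureCounts, with reads of several places counted at each. Whether strand was used is not given in the sources used here. The deposited values are raw counts per gene, not normalized. Of the 32623 genes in the table, 11341 were without a count. Groups were taken from the sample labels.

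Genes were filtered with filterByExpr of edgeR 4.0.16 (smallest count 10), which kept 14417. The 3 groups of 14 rats were fitted in 1 model with edgeR's quasi-likelihood test (TMM) and DESeq2 1.42.0 (Wald test) in R 4.3.3, adjusted by Benjamini-Hochberg. Log2FC and SE are those of edgeR, on which 95% intervals rest. The intervals of the 8 genes rest on the spread between rats and take rats as independent. The counting interval of Vtcn1 and the floor of 3 counts per library assume that reads are independent. After the fit to the rats, the same fits were run on counts simulated from its levels and spread. In these counts 200 genes had known changes, and the outcome is not given here. The 8 genes, the lists and the tests were chosen with earlier results of these data known. From each list the text names the DEG with the largest log2FC, up to 3 in each direction of a comparison with control. Krt8, Krt18, Slc4a2, Cldn3, Cdh1, Anxa4, Afp, Gpc3, Klf5, Ccn1, Ankrd1, Tnfsf12, Tnfrsf12a, Notch2, Hes1, Jag1, Yap1 and the single marker genes were named after their values were seen. Listed genes without a row in the table, such as Pkhd1, H19 and Sox4, are not analysed here. The replicates are different rats. Alternatives changed normalization, filter, test, samples, replicate block and label prefix.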

Additional observations from a re-analysis of the deposited data

Results flagged for a closer look

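Spp1, the osteopontin gene, was marked for a closer look because its difference between cirrhosis & eplerenone and cirrhosis had opposite directions in the rats of different label prefixes. In prefix 15 the 3 cirrhotic rats held 27.0 to 49.5 FPM and the 2 eplerenone-treated rats 12.3 to 15.8 FPM, a log2FC of -1.34 (SE 0.32). In prefix 20 the 2 cirrhotic rats held 4.05 to 4.31 FPM and the 3 eplerenone-treated rats 6.89 to 9.43 FPM, a log2FC of 0.94 (SE 0.33). The difference between the prefixes was -2.29 (SE 0.46), with an unadjusted p of 0.000454 in edgeR's quasi-likelihood test over the 10 CCl4-treated rats. After Benjamini-Hochberg adjustment over all genes tested the FDR was 0.285, so it did not pass. Spp1 was marked from these same values, so the unadjusted p is a description only. For the other 7 genes the difference between prefixes had an FDR of 0.414 (Sox9) to 0.889 (Cftr) in the same edgeR test.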

How the results depend on the processing

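All 8 genes remained higher than control in cirrhosis, and in cirrhosis & eplerenone, under every alternative in which they were tested. A filter of 10 or more counts in all 14 rats leaves 3 of the 8 genes. Of these 3 were DEG in cirrhosis and 1 in cirrhosis & eplerenone against control, beside 11.9% and 2.75% of all genes higher. Against control, 8 of the 8 were DEG with eplerenone when libraries were scaled by total counts and also by DESeq2 alone. The shares of all genes higher were 8.89% and 8.44% there. Scaling by total counts put the median log2FC of all genes at 0.28 in cirrhosis and 0.32 with eplerenone against control, and the median of the 8 in cirrhosis at 3.46, and split the DEG of cirrhosis into 3053 higher and 359 lower, in place of 1937 and 961. With each rat left out in turn, 6 to 8 of the 8 were DEG in cirrhosis, 0 between eplerenone and cirrhosis, and 2 to 7 with eplerenone against control. Over these fits the share of all genes higher ran from 7.02% to 18% in cirrhosis and from 1.22% to 6.92% with eplerenone against control. Between eplerenone and cirrhosis the sign turned for Krt7 (0.50), Krt19 (0.94), Spp1 (0.94) and Cldn4 (0.22) within prefix 20, and for Krt19 with prefix as a term (0.032) and without cirrhosis replicate 1 (0.093). Without single rats the log2FC of Krt19 in this comparison ran from -0.79 (without eplerenone replicate 3) to 0.093.

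Same replicate numbers did not pair the rats, since the correlation of their deviations from group means ran from -0.33 to 0.19. With the replicate number as a replicate block 7 of the 8 were DEG in cirrhosis (8.4% of all genes higher), 0 between eplerenone and cirrhosis and 2 with eplerenone against control (1.61% of all genes higher). Low counts in controls limit the precision of the folds of Krt7, Sox9, Cftr, Prom1 and Cldn4.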
